A study of Mus musculus with 8 samples.

Results

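The genes described here are 42 genes of the synaptic vesicle and of the active zone, the patch of presynaptic membrane where vesicles fuse. They were chosen by name, though with earlier results of these data known. All 42 were found among the 38924 genes of the deposited count tables. They fall into 8 groups by role, namely 12 active zone scaffolds, 4 priming factors, 6 SNARE proteins and complexins, 6 synaptotagmins, 5 vesicle membrane proteins, 3 synapsins, 4 genes of Rab3 and its effector, and 2 neurexins.

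A presynaptic terminal releases transmitter when a vesicle that has docked at the active zone fuses with the plasma membrane. Large scaffolds such as piccolo, bassoon, RIM, ELKS and liprin-alpha hold vesicles and calcium channels together, priming factors ready the vesicle, and SNARE proteins drive fusion when a synaptotagmin binds calcium. Dopamine and serotonin neurons use this machinery for vesicles that are filled with monoamine by a shared vesicular transporter, and in the embryo they are still building their axons and release sites.

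The study used bacTRAP mice, in which a tagged ribosomal protein is made only where a chosen promoter is active, so that ribosome-bound RNA can be pulled out of mixed tissue. Ribosome-bound RNA was sequenced from midbrain dopamine neurons in 6 libraries, titled Lateral (n = 1), Medial (n = 1), datL (n = 2) and datM (n = 2), and from hindbrain serotonin neurons in 2 libraries. The labels give dissection on embryonic day 15 for all libraries, and also say that midbrain called day 18 was taken on day 15 and then kept 3 days in vitro. The mark E18 stands only in the file headers of Lateral and Medial, and the letters L and M are not spelled out. In the design text the tag is driven by DAT (Slc6a3), the dopamine transporter, or by SLC6A4, the serotonin transporter, while the description of every library, serotonin included, names the Slc6a3 line. The groups were therefore taken from the titles. The labels do not say whether replicates came from separate animals or pools, so p-values rest on how far these libraries differ from each other, and that spread may be technical.

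Total counts ran between 22417739 and 33216710 per library. The file headers place Lateral, Medial and both serotonin libraries in lane 8 of 1 run, and all datL and datM libraries in a run folder named for October. Fewer genes were detected in each datL and datM library (11708 to 12509) than in Medial (13703), Lateral (15656) or serotonin (15357 and 15002). Members under 1 CPM numbered 12 and 4 in datL and 5 in each datM library, against 0 in Lateral, 2 in Medial and 1 and 0 in serotonin. The part of this in the levels below was not tested. Slc6a3 stood at 31.9 to 740 CPM (counts scaled so that every library has the same total) in the dopamine libraries, against 0.171 and 0.679 CPM in the serotonin libraries, and Tph2, the serotonin-synthesis enzyme, at 0 to 41.5 CPM against 2189 and 2909 CPM. The dopamine neuron list was less uniform: of its 11 genes, 5 were higher and 1 was lower in all 6 dopamine libraries, and it summed to 398 to 2708 CPM in dopamine libraries against 417 and 434 CPM in serotonin libraries. The lowest sum was that of datL replicate 1. The serotonin list summed to 92.2 to 423 CPM against 4688 and 5461 CPM. Slc18a2 and Lmx1b stand in both the dopamine and the serotonin list. The 423 CPM was that of datL replicate 1, where Tph2 and Slc6a4 were at 0. Markers of astrocytes and radial glia summed to 2060 to 5116 CPM in dopamine libraries and 1043 to 1426 CPM in serotonin libraries, with all 11 of 11 detected in some library. The red blood cell list summed to 102 to 754 CPM against 31.5 to 52.5 CPM, and the progenitor list to 303 to 732 CPM against 124 and 129 CPM, with all 8 of its genes at positive log2 fold changes. The GABA neuron list overlapped, at 97.0 to 927 CPM against 199 and 242 CPM, although 8 of its 9 genes had positive log2 fold changes. Of 9 microglial markers, Csf1r and P2ry12 were at 0 in every library and the other 7 were detected in some library, with sums of 0 to 14.1 CPM against 0.0343 and 1.90 CPM. The pan-neuronal list overlapped between the groups, with 18728 to 27775 CPM in dopamine libraries and 27346 to 28477 CPM in serotonin libraries. The noradrenaline neuron list was higher on the serotonin side, at 0 to 3.12 CPM in dopamine libraries against 10.1 and 36.0 CPM. Its 3 tested genes were lower in all 6 dopamine libraries. The part of these other cell types in the results below was not tested.

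Summed over the 42 genes, the level was 6305 CPM in Lateral, 5611 CPM in Medial, 3474 and 4480 CPM in datL and 4304 and 4806 CPM in datM, against 5265 and 5433 CPM in the serotonin libraries. The 4 libraries of the October run thus all lay below the 4 of lane 8. In such bulk samples fewer cells of a type and less RNA per cell cannot be told apart. Per kilobase of exon and averaged over the 5 groups, the genes with the highest levels were Stx1a at 115 CPM per kb, Rab3a at 109, Snap25 at 85.4, Syt11 at 82.4 and Syt4 at 72.5. The lowest were Vamp1 at 0.690 and Syt2 at 0.310 CPM per kb.

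**Figure D1:**
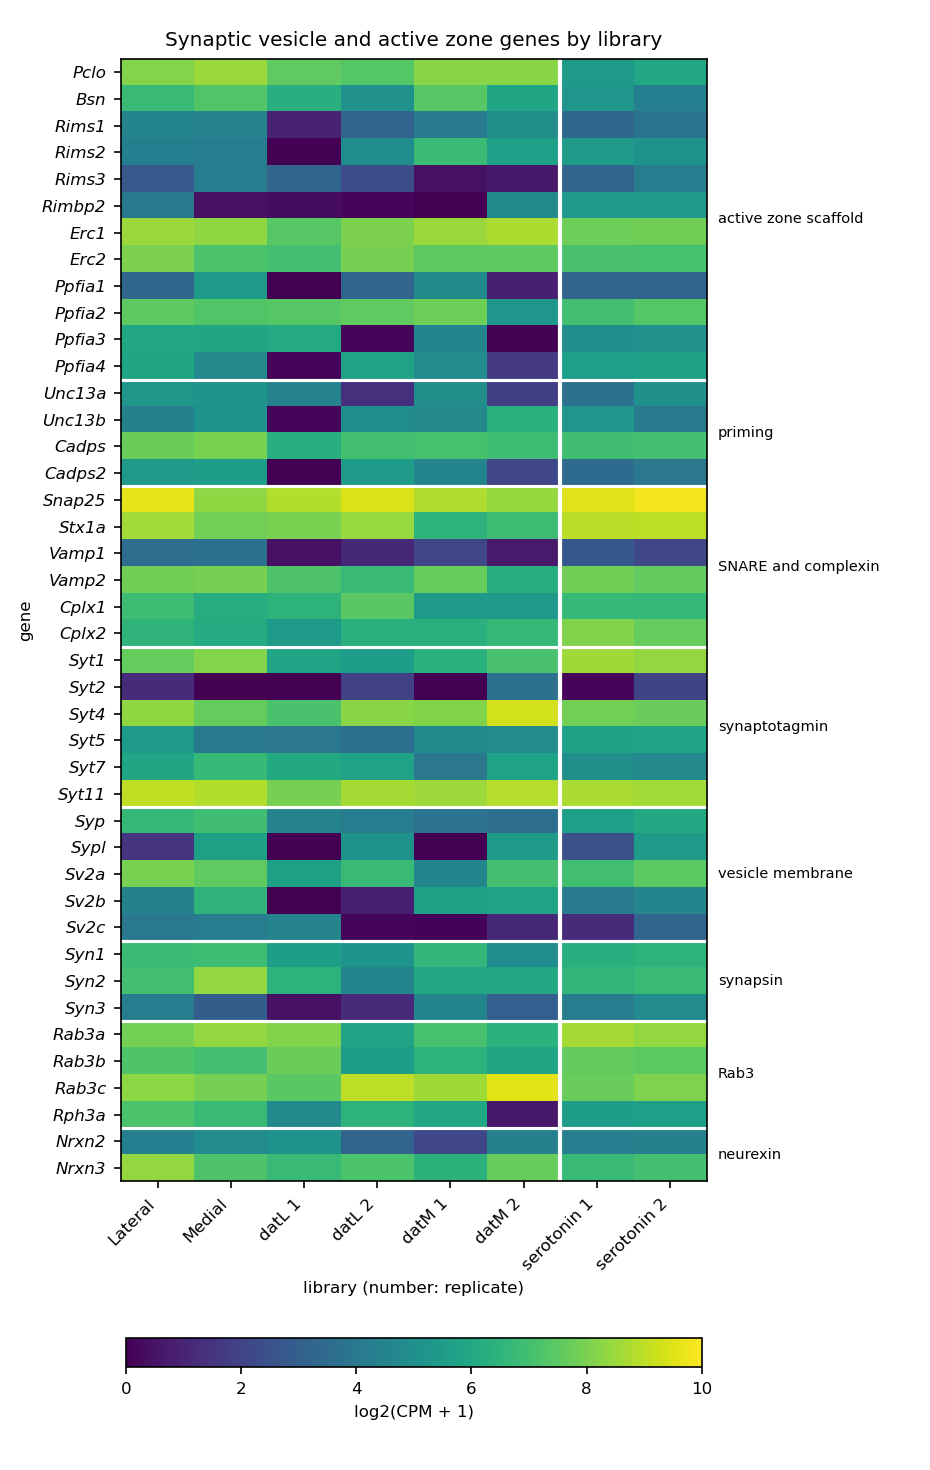
Level of each of the 42 genes (rows, grouped by role) in each of the 8 libraries (columns), as log2(CPM + 1), with the 2 serotonin libraries right of the white line. Pclo is brighter in all 6 dopamine libraries than in both serotonin libraries, and dark cells of otherwise bright rows stand mostly in datL and datM.

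Dopamine was first compared with serotonin over all 8 libraries. The 6 dopamine libraries were treated as 1 group, although they differ in title, run and E18 mark. Only Lateral and Medial share a run with the serotonin libraries, so neuron type cannot be fully told apart from run here. Of the 42 genes, Pclo was higher in all 6 dopamine libraries than in both serotonin libraries, and Cplx2, Syt1, Stx1a, Syt5 and Rimbp2 were lower in all 6. Among all 13806 genes tested, 3.06% were higher in this way and 8.59% lower, against 1 and 5 of the 42, so neither share was far from that of all genes. No member passed edgeR's quasi-likelihood test with Benjamini-Hochberg adjustment at 0.05, and neither did any other gene (0% in each direction). At an unadjusted p under 0.05, 2 members were higher (2.8% of genes) and 2 were lower (1.9% of genes). DESeq2 called 1 member, Pclo, which was higher (0.847% of genes higher, 0.0579% lower, 0.905% in either direction). The median log2 fold change was 0.13 over the members and 0.26 over all genes tested. The members' median was 0.25 without datL replicate 2, 0.058 without Lateral and 0.060 without serotonin replicate 1, and 3 members were higher without datL replicate 1 (6.11% of genes). In a fit of all 5 title groups, with the dopamine groups averaged, both medians changed sign. They were -0.023 over the members and -0.37 over all genes tested, and 0 members passed (0.0132% of genes).

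The same serotonin libraries were then set against the dopamine libraries of each run on its own. Within lane 8, Lateral and Medial both lay above both serotonin libraries for 21 members (25% of 13400 genes) and below both for 8 (24.6% of genes), a contrast in which E18 is marked for the dopamine side alone. No member passed edgeR's test there (0.00746% of genes passed as higher and 0.0149% as lower), while an unadjusted p under 0.05 was reached by 7 higher members (7.34% of genes) and 1 lower member (6.46% of genes). DESeq2 called Pclo, Bsn and Rph3a higher (3.6% of genes) and Cplx2 lower (2.28% of genes; 5.87% in either direction). When Lateral was left out, so that Medial alone stood for dopamine and was assumed to vary like the serotonin pair, edgeR called 11 members, but it then called 17.3% of all genes as well. The members' median log2 fold change was 0.21, against 0.03 over all genes, and it was 0.46 without serotonin replicate 2 and 0.31 without Medial. Of the markers tested here, 8 of 10 for astrocytes and radial glia and 7 of 8 for progenitors were also above both serotonin libraries in Lateral and Medial.

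For datL and datM, which were sequenced apart from the serotonin libraries, 1 member lay above both serotonin libraries in all 4 (4.94% of 13032 genes) and 11 lay below (18% of genes). With TMM-scaled library sizes these counts were 2 (5.99% of genes) and 7 (15.8% of genes). Without datL replicate 1 they were 5 (10.9% of genes) and 14 (26.6% of genes). Run and neuron type cannot be told apart in this comparison. No member passed edgeR's test (0% of genes passed as higher and 0.0153% as lower), and an unadjusted p under 0.05 was reached by Pclo as higher (2.87% of genes) and by Syt1 and Cplx2 as lower (6.11% of genes). DESeq2 called Pclo higher (1.1% of genes) and no other member (0.483% of genes lower, 1.58% in either direction). The members' median log2 fold change was -0.015, against 0.21 over all genes. It was 0.033 without serotonin replicate 2 and between -0.22 and -0.17 without any other single library. The 3 comparisons with serotonin share the same 2 serotonin libraries.

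**Figure D2:**
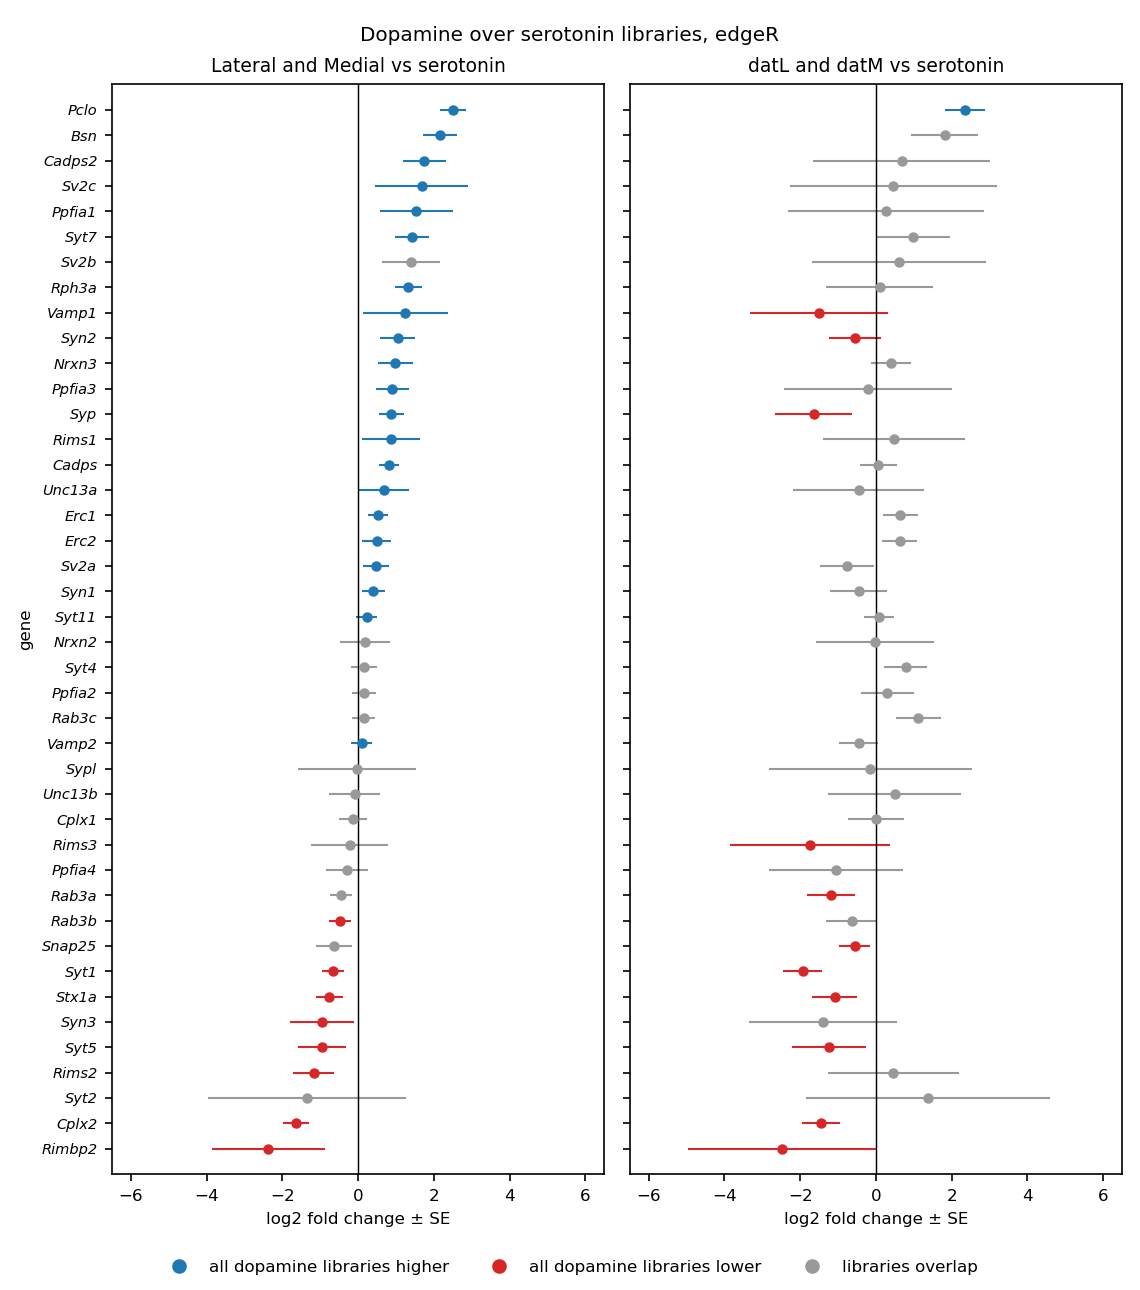
log2 fold change of dopamine over serotonin libraries for the 42 genes (edgeR, bars are standard errors), for Lateral and Medial on the left and datL and datM on the right, both against the same 2 serotonin libraries. Blue points mark genes for which every dopamine library was higher (21 on the left, 1 on the right, against 25% and 4.94% of all genes tested). Red points mark genes for which every one was lower (8 and 11, against 24.6% and 18% of all genes tested), and grey points genes whose libraries overlapped. The left panel has fewer dopamine libraries, which makes overlap rarer there by construction. No gene plotted passed the adjusted test.

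Among the active zone scaffolds, piccolo and bassoon had the largest differences in favour of dopamine. Piccolo (Pclo, ENSMUSG00000061601.9, mm10 chromosome 5, 14514918 to 14860184) is a very large scaffold that recruits actin and holds the vesicle cluster. It stood at 279 CPM in Lateral, 361 CPM in Medial, 188 and 165 CPM in datL and 298 and 296 CPM in datM, against 43.0 and 63.2 CPM in the serotonin libraries. The lowest dopamine library, datL replicate 2, was above the higher serotonin library, so the groups did not overlap. The mean was 265 ± 73.9 CPM over the dopamine libraries (SD, n = 6), against 53.1 ± 14.3 CPM over the serotonin pair (SD, n = 2), a 4.98-fold ratio. In the edgeR fit its log2 fold change was 2.43 ± 0.48 (SE) and its adjusted p was 0.328, the rank of its p being 8 of 13806 genes. DESeq2 gave an adjusted p of 4.39e-06 for the same comparison. Within lane 8 the log2 fold change was 2.51 ± 0.33 (SE, edgeR adjusted p = 0.254), and for datL and datM against serotonin it was 2.35 ± 0.52 (SE, edgeR adjusted p = 0.123).

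Bassoon (Bsn, ENSMUSG00000032589.8, chromosome 9, 108096022 to 108190384), a paralog of piccolo, had 109 CPM in Lateral, 154 CPM in Medial, 75.7 and 32.7 CPM in datL and 169 and 58.4 CPM in datM, against 36.0 and 18.9 CPM in the serotonin libraries. Of the dopamine libraries only datL replicate 2 lay within the serotonin range, and the libraries therefore overlapped. Its log2 fold change over all libraries was 1.97 ± 0.75 (SE, edgeR adjusted p = 0.920) and within lane 8, where the groups did not overlap, 2.16 ± 0.46 (SE, edgeR adjusted p = 0.273). DESeq2 gave an adjusted p of 0.00181 within lane 8 and 0.166 over all libraries. The 2 genes have the longest exon sequence of the 42, at 19182 bases for Pclo and 15938 bases for Bsn. Of the exon bases of Bsn, 11.4% are shared with another gene on the other strand, whose reads cannot be told apart in counts made without strand.

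The ELKS proteins Erc1 and Erc2, which bind RIM and bassoon, were the scaffolds with the highest level per length, at 26.1 and 29.9 CPM per kb averaged over the 5 groups. Erc1 had 358 CPM in Lateral, 319 CPM in Medial, 169 and 263 CPM in datL and 358 and 435 CPM in datM, against 223 and 224 CPM in the serotonin libraries. Erc2 had 259 CPM in Lateral, 144 CPM in Medial, 129 and 247 CPM in datL and 181 CPM in both datM libraries, against 140 and 135 CPM in the serotonin libraries. For both genes datL replicate 1 was the only dopamine library below the serotonin libraries, and the groups overlapped.

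Rimbp2, which links RIM to calcium channels, went the other way from piccolo. It had 15.4 CPM in Lateral, 0.357 CPM in Medial, 0.264 and 0.114 CPM in datL and 0 and 25.8 CPM in datM, against 40.0 and 40.5 CPM in the serotonin libraries. All 6 dopamine libraries were lower, 4 of them below 1 CPM. The remaining scaffolds overlapped between all dopamine and both serotonin libraries. They are the RIM genes Rims1 (0.925 to 29.8 CPM against 9.33 and 13.3 CPM), Rims2 (0.0441 to 113 CPM against 44.9 and 33.95 CPM) and Rims3 (0.367 to 18.1 CPM against 8.69 and 17.5 CPM), and the liprins Ppfia1 to Ppfia4, of which Ppfia2 was the highest per length at 19.7 CPM per kb.

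Of the priming factors, Cadps and Cadps2 encode the CAPS proteins, which prime dense-core vesicles and act in monoamine storage. Cadps had 214 CPM in Lateral, 251 CPM in Medial, 78.6 and 124 CPM in datL and 134 and 119 CPM in datM, against 120 and 130 CPM in the serotonin libraries. Cadps2 had 41.5 CPM in Lateral, 47.2 CPM in Medial, 0 and 43.4 CPM in datL and 22.02 and 3.33 CPM in datM, against 10.1 and 14.8 CPM in the serotonin libraries. Lateral and Medial were above serotonin for both genes, with log2 fold changes of 0.81 ± 0.27 for Cadps and 1.75 ± 0.58 for Cadps2 within lane 8 (SE, edgeR adjusted p = 0.294 and 0.291). The datL and datM libraries overlapped serotonin for both. The Munc13 genes Unc13a and Unc13b, whose proteins open syntaxin for SNARE assembly, were low per length (1.95 and 2.16 CPM per kb) and overlapped between all dopamine and both serotonin libraries.

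Complexins clamp and then promote the assembled SNARE complex. Cplx2 (ENSMUSG00000025867.8, chromosome 13, 54371349 to 54383917) stood at 88.7 CPM in Lateral, 69.7 CPM in Medial, 42.7 and 79.5 CPM in datL and 79.5 and 100 CPM in datM, against 274 and 196 CPM in the serotonin libraries. Every dopamine library was below both serotonin libraries. The mean was 76.7 ± 19.6 CPM over the dopamine libraries (SD, n = 6), against 235 ± 55.4 CPM over the serotonin pair (SD, n = 2). Over all libraries the log2 fold change was -1.48 ± 0.44 (SE, edgeR adjusted p = 0.494). It was -1.65 ± 0.34 within lane 8 (SE, edgeR adjusted p = 0.273), where DESeq2 gave an adjusted p of 0.00324, and -1.44 ± 0.50 for datL and datM against serotonin (SE, edgeR adjusted p = 0.301). Its paralog Cplx1 had 117 CPM in Lateral, 74.7 CPM in Medial, 88.4 and 174 CPM in datL and 41.4 and 41.3 CPM in datM, against 102 and 100.1 CPM in the serotonin libraries, so that dopamine libraries lay on both sides of serotonin.

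Stx1a, the plasma membrane syntaxin of the release site (ENSMUSG00000007207.4, chromosome 5, 135023482 to 135051100), had the highest level per length of the 42 genes. Its level was 387 CPM in Lateral, 235 CPM in Medial, 253 and 353 CPM in datL and 87.5 and 119 CPM in datM, against 496 and 512 CPM in the serotonin libraries. The groups did not overlap, and the log2 fold change was -0.94 ± 0.52 (SE, edgeR adjusted p = 1.00). Its partner Snap25 had 782 CPM in Lateral, 323 CPM in Medial, 457 and 686 CPM in datL and 453 and 341 CPM in datM, against 749 and 906 CPM in the serotonin libraries. Lateral alone of the dopamine libraries reached the serotonin range. The vesicle SNARE Vamp2 overlapped between the groups (74.3 to 244 CPM in dopamine libraries, 192 and 227 CPM in serotonin libraries), as did Vamp1 at 0.352 to 12.04 CPM against 3.43 and 5.67 CPM.

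**Figure D3:**
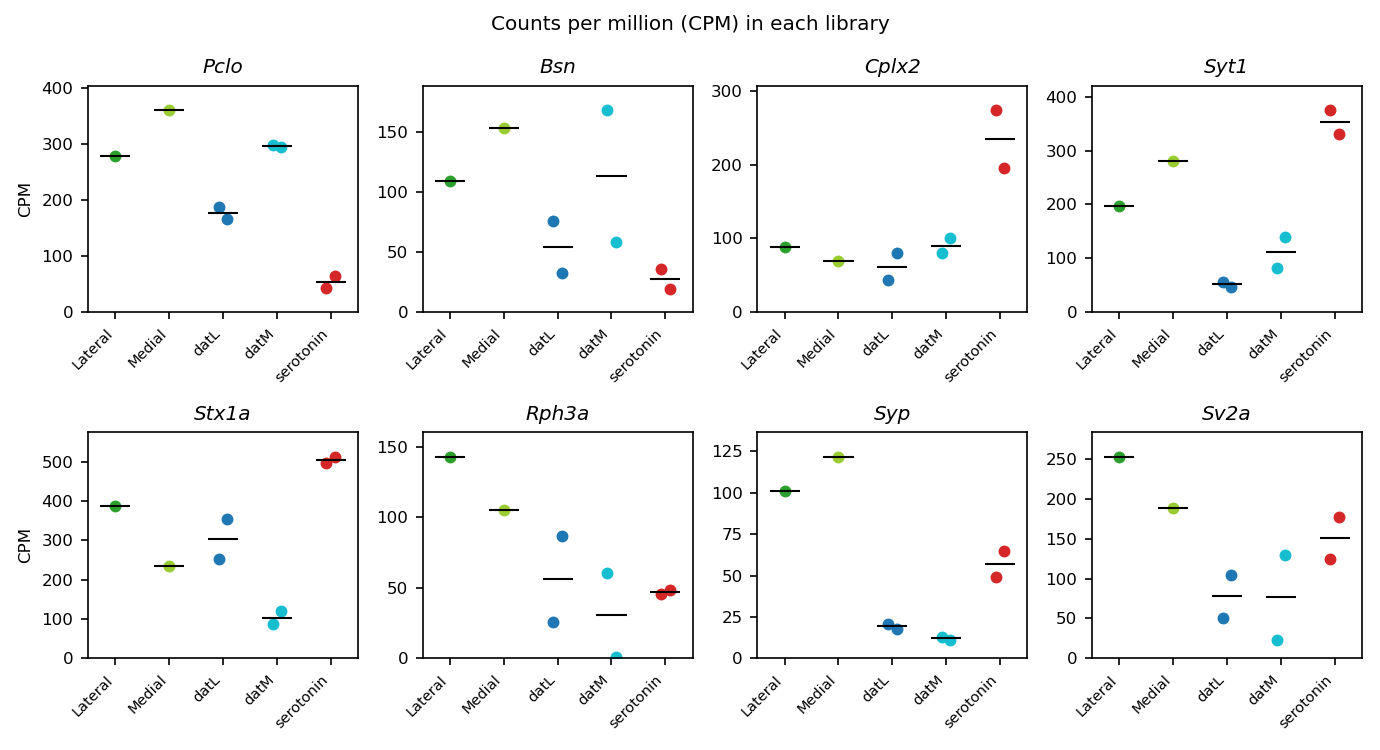
Level in CPM (vertical axes, starting at 0) of 8 genes in each library, by group (Lateral and Medial n = 1, datL, datM and serotonin n = 2; bars are group means). Pclo lies higher and Cplx2, Syt1 and Stx1a lie lower in all 6 dopamine libraries than in both serotonin libraries, while Syp is lowest in the 4 libraries of datL and datM.

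Synaptotagmin 1 (Syt1, ENSMUSG00000035864.8, chromosome 10, 108497650 to 109010982), the calcium sensor for fast release, had 196 CPM in Lateral, 281 CPM in Medial, 55.7 and 46.9 CPM in datL and 81.9 and 139 CPM in datM, against 375 and 330 CPM in the serotonin libraries. The order was datL lowest, then datM, then Lateral, Medial and serotonin, and no library of one of these groups overlapped another group. Against serotonin, the log2 fold change was -1.33 ± 0.57 over all dopamine libraries (SE, edgeR adjusted p = 1.00), -0.66 ± 0.29 within lane 8 (SE, edgeR adjusted p = 0.392) and -1.93 ± 0.51 for datL and datM (SE, edgeR adjusted p = 0.146). Syt5 was likewise below serotonin in all 6 dopamine libraries, with 11.4 to 42.4 CPM against 51.4 and 56.8 CPM.

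The atypical synaptotagmins Syt11 and Syt4 had the highest levels per length of the synaptotagmins among the members. Syt11 had 533 CPM in Lateral, 462 CPM in Medial, 244 and 406 CPM in datL and 371 and 468 CPM in datM, against 421 and 387 CPM in the serotonin libraries. Syt4 had 319 CPM in Lateral, 200.2 CPM in Medial, 140 and 299 CPM in datL and 278 and 629 CPM in datM, against 235 and 210 CPM in the serotonin libraries. Both overlapped between the groups. Syt7, a slow, high-affinity calcium sensor, had 57.1 CPM in Lateral and 102 CPM in Medial, against 30.3 and 25.0 CPM in serotonin, or 1.42 ± 0.45 on the log2 scale (SE, edgeR adjusted p = 0.290 within lane 8). In datL and datM it ran between 14.7 and 66.2 CPM and overlapped serotonin.

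Relative to the 6 synaptotagmins among the members, the share of Syt1 was also smaller in dopamine libraries. Shares were taken per library as a percent of the counts per kb of the members of a family, which leaves the scaling between libraries out. Other genes of a family were not counted. Syt1 made up 9.78% of these 6 genes in Lateral, 17.1% in Medial, 6.23% and 3.22% in datL and 5.79% and 5.69% in datM, against 20.5% and 19.4% in the serotonin libraries. Syt5 averaged 6.73% ± 2.59 (SD, n = 6) in dopamine libraries and 14.7% ± 1.80 (SD, n = 2) in serotonin libraries. For these 2 shares the groups did not overlap. The exact two-sided permutation p was 0.0714, the smallest two-sided value that 28 arrangements allow. Its adjusted p was 0.814 over the 38 shares of 14 families computed. Labels placed at random separate any 1 share with that same probability of 0.0714, and the Syt1 share reuses the counts of its level above. The other 36 shares overlapped. Cplx2 made up 31.1% ± 14.7 of the complexin counts per kb in dopamine libraries (SD, n = 6) and 50.5% ± 5.68 in serotonin libraries (SD, n = 2), with datM replicate 2 at 51.9%.

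**Figure D4:**
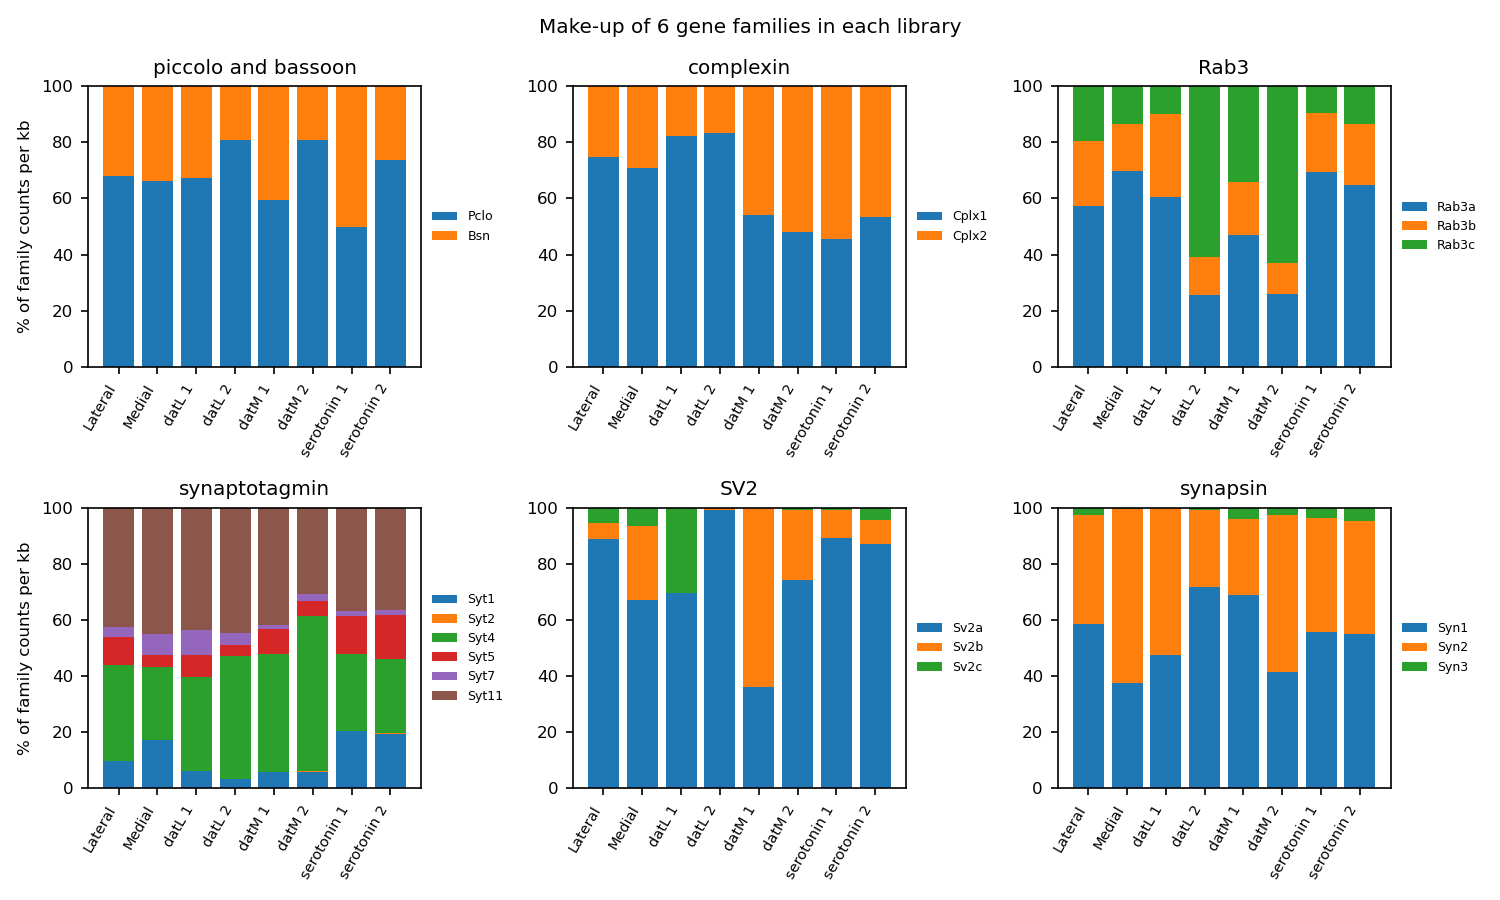
Share of each gene in the summed counts per kb of the members of its family, in percent, for 6 families (panels) and 8 libraries (bars). The blue base of the synaptotagmin bars, Syt1, is smaller in every dopamine library than the 20.5% and 19.4% of the serotonin libraries, and the Rab3c part of the Rab3 bars runs between 9.91% and 62.9% among dopamine libraries.

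Of the vesicle membrane proteins, synaptophysin (Syp, ENSMUSG00000031144.9, chromosome X, 7638471 to 7653256), a widely used marker of synaptic vesicles, lay on both sides of serotonin. It had 101 CPM in Lateral, 122 CPM in Medial, 21.0 and 17.9 CPM in datL and 12.9 and 11.3 CPM in datM, against 49.2 and 65.0 CPM in the serotonin libraries. Lateral and Medial were above serotonin and all 4 datL and datM libraries below it. Exons of another gene on the other strand, Gm14703, cover 16.8% of its exon bases. Sv2a, a vesicle glycoprotein, had 253 CPM in Lateral, 189 CPM in Medial, 51.0 and 105 CPM in datL and 23.4 and 130 CPM in datM, against 125 and 178 CPM in the serotonin libraries. It was highest in Lateral and Medial and overlapped serotonin in datM. Its paralog Sv2c ran between 0.0734 and 21.5 CPM in dopamine libraries, against 1.32 and 8.47 CPM in serotonin libraries.

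Synapsins coat vesicles and tether them to each other and to actin. Syn1 had 110 CPM in Lateral, 117 CPM in Medial, 46.8 and 35.1 CPM in datL and 96.3 and 28.1 CPM in datM, against 75.7 and 87.4 CPM in the serotonin libraries. Syn2 had 125 CPM in Lateral, 329 CPM in Medial, 88.4 and 23.0 CPM in datL and 64.1 and 64.4 CPM in datM, against 94.2 and 109 CPM in the serotonin libraries. Both genes were above serotonin in Lateral and Medial, and Syn2 was below it in all 4 datL and datM libraries. Syn3, the lowest of the 3 per length, had 17.6 CPM in Lateral, 6.69 CPM in Medial, 0.352 and 1.37 CPM in datL and 21.7 and 6.95 CPM in datM, against 18.1 and 27.4 CPM in the serotonin libraries. Timp3 shares 14.1% of its exon bases on the other strand, and for Syt4 such a share is 14.7%.

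Rab3 proteins are vesicle-bound GTPases, and rabphilin (Rph3a) binds their active form. Rab3a had 237 CPM in Lateral, 335 CPM in Medial, 277 and 56.1 CPM in datL and 136 and 83.4 CPM in datM, against 402 and 334 CPM in the serotonin libraries. Medial exceeded the lower serotonin library by about 1 CPM, and with TMM-scaled library sizes all 6 dopamine libraries were below serotonin. Rab3c had 311 CPM in Lateral, 247 CPM in Medial, 174 and 508 CPM in datL and 377 and 776 CPM in datM, against 211 and 268 CPM in the serotonin libraries, so its range in dopamine libraries enclosed that of serotonin. Rph3a had 143 CPM in Lateral, 105 CPM in Medial, 26.1 and 87.0 CPM in datL and 60.6 and 0.582 CPM in datM, against 45.8 and 48.6 CPM in the serotonin libraries. Lateral and Medial were above serotonin (log2 fold change 1.32 ± 0.36, SE, edgeR adjusted p = 0.286, DESeq2 adjusted p = 0.0438), while datM replicate 2 had almost none. Rab3b ran between 46.2 and 216 CPM in dopamine libraries, against 178 and 193 CPM in serotonin libraries.

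Neurexins are presynaptic adhesion proteins that organise the release site across from the postsynaptic cell. Nrxn3 had 335 CPM in Lateral, 145 CPM in Medial, 105 and 144 CPM in datL and 84.2 and 202 CPM in datM, against 106 and 127 CPM in the serotonin libraries. Nrxn2 had 18.7 CPM in Lateral, 27.3 CPM in Medial, 33.0 and 8.09 CPM in datL and 3.34 and 19.4 CPM in datM, against 18.5 and 19.3 CPM in the serotonin libraries. Dopamine libraries lay on both sides of serotonin for each of them.

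Lateral and Medial were next compared with datL and datM, a comparison among dopamine libraries in which run and the E18 mark cannot be told apart. Both Lateral and Medial exceeded all 4 datL and datM libraries for 10 members, Syp, Syn2, Syt1, Sv2a, Cadps, Syn1, Vamp1, Vamp2, Rph3a and Unc13a, against 12.5% of the 12818 genes tested. No member was below all 4 (2.77% of genes). The count of higher members was 16 without datL replicate 1 (18.2% of genes), 18 without Lateral (25.8% of genes) and 17 without Medial (19.1% of genes). Syp averaged 111 CPM in Lateral and Medial and 15.7 CPM in datL and datM, and its log2 fold change was 2.63 ± 0.92 (SE, edgeR adjusted p = 0.513). For Syn2 the log2 fold change was 1.70 ± 0.69 (SE, edgeR adjusted p = 0.844), which was 0.97 without Medial. For Syt1 it was 1.39 ± 0.60 and for Sv2a 1.36 ± 0.71 (SE, edgeR adjusted p = 1.00 for both). No member passed edgeR's test (0% of genes in each direction), 3 were higher and 0 lower at an unadjusted p under 0.05 (3.81% and 0.663% of genes), and DESeq2 called 0 members (0.179% of genes higher, 0.0936% lower, 0.273% in either direction). The members' median log2 fold change was 0.53, against -0.11 over all genes. Of the 7 red blood cell markers tested, all had negative log2 fold changes, and 4 of 7 serotonin neuron markers were higher in both Lateral and Medial than in all datL and datM libraries. The part of these cell types was not tested.

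Between datL and datM, 5 members were higher in both datL libraries (Stx1a, Cplx1, Rims3, Snap25 and Syp; 11.3% of 15177 genes) and 8 were lower in both (Sv2b, Syn3, Syt1, Syt5, Erc1, Pclo, Rims1 and Rims2; 13.2% of genes). These counts rest on pairs that spread widely, and leaving out 1 library raised their total of 13 to between 22 and 31. The shares of all genes rose too, to between 22.4% and 28% as higher and between 24.4% and 30.5% as lower. Markers of other cells differed between the same libraries. Of 9 GABA neuron markers, 6 were higher in both datL libraries, and the list summed to 396 and 650 CPM in datL against 97.0 and 201 CPM in datM. Of 11 astrocyte and radial glia markers, 5 were lower in both datL libraries and 1 was higher, with overlapping sums of 3746 and 2060 CPM in datL against 5116 and 2987 CPM in datM. Of 11 dopamine neuron markers, 5 were lower in both datL libraries, and the list summed to 398 and 965 CPM in datL against 1919 and 1392 CPM in datM. Their part in the differences among members was not tested. Stx1a averaged 303 CPM in datL and 103 CPM in datM, with 1.63 ± 0.47 on the log2 scale (SE, edgeR adjusted p = 0.597), and Cplx1 averaged 131 CPM in datL and 41.3 CPM in datM, with 1.74 ± 0.70 on the log2 scale (SE, same adjusted p). Sv2b, a paralog of Sv2a, had 0 and 0.801 CPM in datL and 50.8 and 53.7 CPM in datM, so that both datL libraries were below both datM libraries. Its log2 fold change was -6.94 ± 2.20 (SE, edgeR adjusted p = 0.597, DESeq2 adjusted p = 2.69e-05), and its levels were 20.02 CPM in Lateral, 90.7 CPM in Medial and 16.7 and 22.2 CPM in the serotonin libraries. For Syn3 the log2 fold change was -3.98 ± 2.03 (SE, edgeR adjusted p = 0.597, DESeq2 adjusted p = 0.0316). No member passed edgeR's test (0% of genes in each direction). At an unadjusted p under 0.05, 2 were higher and 1 was lower (3.4% and 3.52% of genes). DESeq2 called Sv2b, Syn3 and Rimbp2, all lower in datL (5.57% of genes lower, 4.89% higher, 10.5% in either direction).

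Between Lateral and Medial, each a single library, no test was run. Of 41 members with at least 100 counts in the 2 libraries together, 6 had a CPM ratio of Lateral over Medial above 2 (25% of 11867 genes) and 5 a ratio under 0.5 (24.2% of genes). The 6 were Rimbp2, Ppfia4, Snap25, Syt5, Syn3 and Nrxn3, and the 5 were Rims3, Ppfia1, Sypl, Sv2b and Syn2. Snap25 stood at 782 CPM in Lateral and 323 CPM in Medial, and Syn2 at 125 CPM in Lateral and 329 CPM in Medial. Syt2 had 43 counts in Lateral and 0 in Medial.

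Single libraries differed strongly within groups. The median fold between the 2 libraries of a group, over the 42 genes, was 1.97 for datL, 2.27 for datM and 1.21 for serotonin, and 12, 12 and 2 members differed by more than 4-fold. Lateral and Medial, 2 groups of 1 library, differed by a median of 1.41-fold. Of 39 members that reached 20 CPM in some library, 13 (33.3%) were below 1 CPM in another, against 43.2% of the 10174 genes that reached 20 CPM. They were Rims1, Rims2, Rimbp2, Ppfia1, Ppfia3, Ppfia4, Unc13b, Cadps2, Sypl, Sv2b, Sv2c, Syn3 and Rph3a. Sypl, a relative of synaptophysin, had 1.90 CPM in Lateral, 49.8 CPM in Medial, 0 and 33.9 CPM in datL and 0 and 43.2 CPM in datM, against 4.58 and 43.7 CPM in the serotonin libraries. It was high in 1 library and low in the other of every pair, serotonin included. Ppfia3 had 68.2 and 0.114 CPM in datL and 22.6 and 0.0416 CPM in datM, and Ppfia4 had 0.0881 and 52.9 CPM in datL and 27.7 and 2.20 CPM in datM. The lower library was not the same one for these genes.

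**Figure D5:**
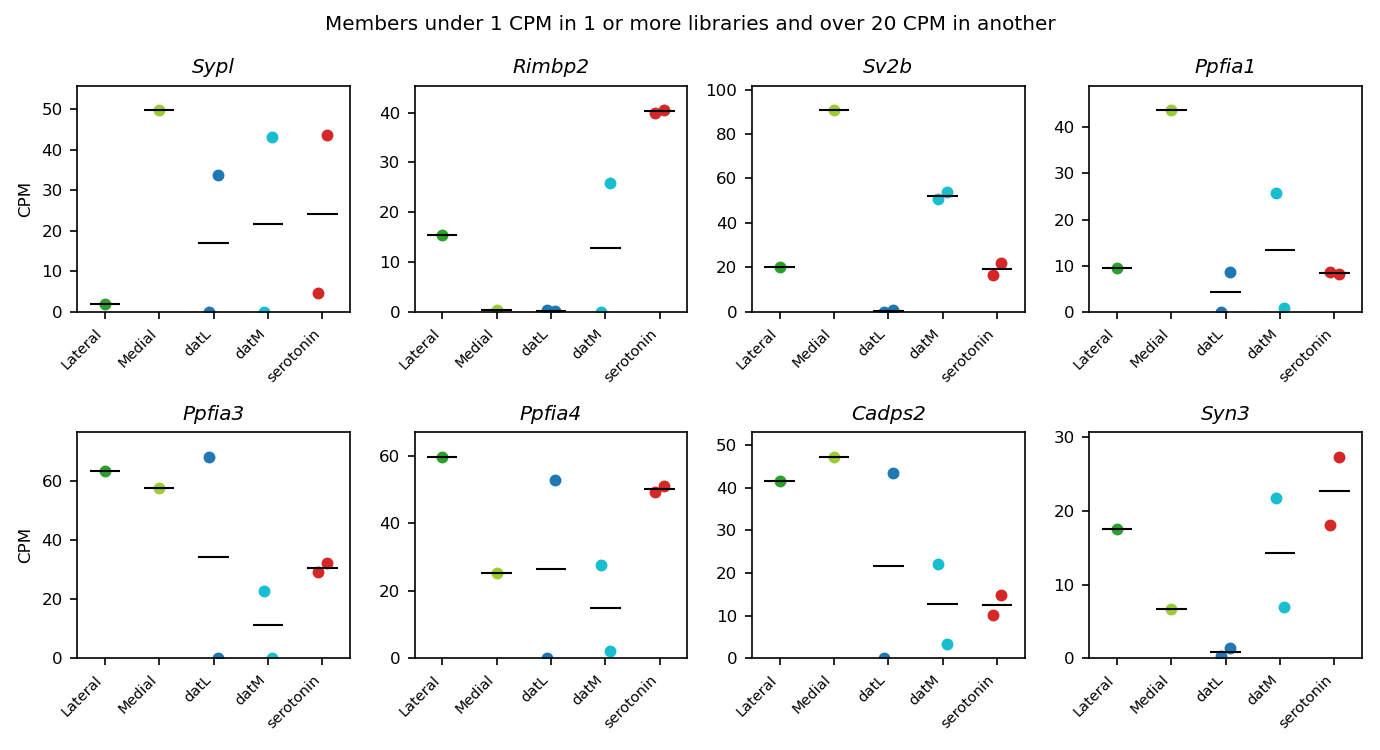
Level in CPM (vertical axes, starting at 0) of 8 of the 13 genes that were below 1 CPM in at least 1 library and reached 20 CPM in another, by group (Lateral and Medial n = 1, datL, datM and serotonin n = 2; bars are group means). For Sypl the 2 points of datL, datM and serotonin stand apart, while for Sv2b the datL points lie at 0 and 0.801 CPM and the datM points at 50.8 and 53.7 CPM.

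Other genes of the presynapse, in lists that hold none of the 42, also gave no call over all libraries with edgeR. Among 27 genes of vesicle endocytosis and recycling, 4 were higher and 3 lower in all 6 dopamine libraries than in both serotonin libraries. Clathrin heavy chain (Cltc) was among the higher ones, at 663 to 1361 CPM in dopamine libraries against 410 and 549 CPM in the serotonin pair (log2 fold change 1.13 ± 0.37, SE, edgeR adjusted p = 0.671). Hspa8, the chaperone that strips clathrin from vesicles, ran between 2046 and 3531 CPM against 1454 and 1741 CPM (log2 fold change 1.02 ± 0.39, SE, edgeR adjusted p = 0.938). Among 19 other genes of the vesicle membrane and of its proton pump, 0 were higher and 6 lower in all dopamine libraries. They included the pump subunit Atp6v0c, at 44.1 to 137 CPM in dopamine libraries against 214 and 226 CPM in the serotonin pair (log2 fold change -1.27 ± 0.48, SE, edgeR adjusted p = 0.894), and synaptogyrin 3 (Syngr3), at 17.8 to 271 CPM against 327 and 415 CPM (log2 fold change -1.90 ± 0.72, SE, edgeR adjusted p = 0.889).

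Of 19 presynaptic adaptors and calcium channel subunits tested, 2 were higher and 1 lower in all dopamine libraries, among them the channel subunit Cacnb4 at 19.5 to 113 CPM against 8.61 and 12.6 CPM (log2 fold change 2.66 ± 0.99, SE, edgeR adjusted p = 0.871). Of 32 other genes of the fusion machinery tested, 0 were higher and 1 lower, and of 21 adhesion partners of neurexin and related proteins, 0 were higher and 1 lower. These counts stand beside 3.06% of all genes as higher and 8.59% as lower.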

How the data were processed

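The authors deposited 1 table of raw read counts per library, made with featureCounts 1.4.3-p1 against GENCODE M2 with strand ignored, per the file headers. The submitters' processing notes list STAR as the aligner and mm10 as the build. Each library was cDNA amplified by long-distance PCR and read as single 100 bp reads, per the labels' protocols. The deposited gene length in bases (other values in the tables) gave CPM per kb.

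From the counts, CPM was computed by library total. Symbols were attached by Ensembl ID. Differences were tested by quasi-likelihood in edgeR 4.0.16, run under R 4.3.3 (TMM factors, default expression filter, two-sided, Benjamini-Hochberg over all genes tested, threshold 0.05), with 1 fit per comparison, and datL against datM in a fit of all 5 groups. All 42 members passed the filter in each of these. A member is called not overlapping where every library of a group lies above, or below, every library of the other. Family shares were tested by exact permutation in SciPy 1.17.1. The test code was checked on simulated counts. Alternatives were DESeq2 1.42.0, RLE factors, library totals only, no filter on low counts and a replicate block. Further ones were a fit of all 5 groups for dopamine against serotonin, the datL and datM libraries alone, and leaving out each library.

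Members and gene lists were chosen with earlier results of these data known. Values in every library are given for the 2 members of each role group that are highest per kb, every member past the threshold and the 4 with the smallest p in each comparison; other lists are given as counts with up to 4 examples by smallest p. Rimbp2, Sypl, Syt7, Ppfia3 and Ppfia4 were chosen for fuller values after their values were seen. The labels mention no molecular identifiers. No 2 libraries were identical.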

Additional observations from a re-analysis of the deposited data

Results flagged for a closer look

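In 4 of the 42 genes, 1 dopamine library stood far from the other 5, by a gap to its neighbour that exceeded Dixon's 95% critical value; chance flags about 1 group in 20. In datM replicate 2, Ppfia2 was at 37.3 CPM, where the next lowest dopamine library had 153 CPM. The same library had Syt2 at 12.4 CPM, with 2.98 CPM in the next highest, and Syt4 at 629 CPM, with 319 CPM in the next highest. In Medial, Syn2 was at 329 CPM, with 125 CPM in the next highest dopamine library.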

How the results depend on the processing

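Lateral and Medial have no replicate, and the serotonin side rests on 2 libraries throughout. Counts of members passing the adjusted test were 0 in each of the 5 tested comparisons under edgeR with TMM or RLE factors, library totals only and no filter, and in the 3 comparisons for which the replicate block was fitted. With DESeq2 they were 1 for dopamine against serotonin, 4 for Lateral and Medial, 1 for datL and datM, and 3 for datL against datM. Leaving out 1 library gave 0 to 11 for Lateral and Medial against serotonin.

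The members' median log2 fold change for Lateral and Medial against serotonin was 0.29 with library totals and 0.20 to 0.46 with 1 library left out. For datL and datM against serotonin it was -0.55 with the replicate block, against -0.015 without it, which also gave -0.0064 for dopamine against serotonin. For Lateral and Medial against datL and datM it was 0.44 with RLE factors or DESeq2, 0.66 with library totals and 0.44 to 0.66 with 1 library left out. For datL against datM it ran between -0.56 and 0.067 with 1 library left out, above 0 without datM replicate 1 alone. Library totals in place of TMM moved the median of all genes to 0.14 (from 0.26) for dopamine against serotonin, to 0.0036 (from 0.21) for datL and datM against serotonin and to 0.07 (from -0.11) for Lateral and Medial against datL and datM. The cause was not tested.

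Members that did not overlap numbered 13 to 19 for datL and datM against serotonin with 1 library left out. Of all genes, 6.72% to 10.9% were then higher and 21.9% to 26.6% lower. For Lateral and Medial against datL and datM such members numbered 11 to 19 (18.2% to 25.8% of genes higher, 4.51% to 9.14% lower). For datL against datM they numbered 22 to 31 (22.4% to 28% of genes higher, 24.4% to 30.5% lower). Fewer libraries make overlap rarer by construction. Families with a share apart numbered 1 to 5 in the same way. Single-gene values were followed only for the members with the smallest p in each comparison, chosen on these same counts. Of these values, 217 of 228 kept their direction and side of the threshold, 11 passed it as well, and none turned its sign. Every setting refitted the same counts for genes chosen this way, so stable signs were likely beforehand and are no independent check.

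Libraries that share a replicate number did not all deviate together (r = 0.12, 0.04 and 0.01 for the 3 pairs of groups). With 2 libraries a group, this cannot exclude that some were prepared together. The titles of datL and datM carry a further number, which was not used. The replicate block changed no call: Pclo had a log2 fold change of 2.43 (edgeR adjusted p = 0.360) for dopamine against serotonin. No block could be fitted for the comparisons of Lateral and Medial, which share fewer than 2 numbers.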
